A study of Homo sapiens with 6 samples.

Results

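The libraries that carry replicate number 2 in their labels were compared with those that carry number 1, in K562 cells transfected with 3 plasmids. The members are 3 libraries of replicate 2 (1 each for EV, MXD3 and STIM1::MXD3) set against 3 libraries of replicate 1 (again 1 each), which together are all 6 libraries of the series. The rule used the replicate number in the sample title and no measured value. The study used these libraries to ask what STIM1::MXD3, a fusion found in pediatric acute myeloid leukemia, does to the transcriptome. K562 is an established human line from a patient with chronic myeloid leukemia in blast crisis, it carries BCR::ABL1, and all 6 libraries came from it with no further treatment. Cells received either the empty vector (EV, the control), a plasmid for wild-type MXD3, or a plasmid for STIM1::MXD3. MXD3 is a partner of MAX that antagonizes MYC at E-box sequences, and in STIM1::MXD3 its amino-terminal end is replaced by the start of STIM1, a calcium sensor of the endoplasmic reticulum. The plasmids were introduced transiently with a Nucleofector, so a culture held both transfected and untransfected cells. The study describes separate transfections for the replicates of a group. Whether libraries with the same number were transfected, extracted or sequenced together is not given in the sources used here, and such causes cannot be told apart.

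K562 cells sit at a crossing of the red cell and platelet lineages and transcribe embryonic and fetal globin genes, haem enzymes and red cell surface proteins without any inducer. The amount of that program, the sterol-regulated genes under SREBP factors and the amino acid and stress genes under ATF4 are all known to shift with the state of a culture. Comparing replicate numbers with the plasmid in the fit asks which genes differed between the numbers on average over the plasmids, and does not require each plasmid pair to move the same way.

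Totals ranged from 53048343 to 63835779 counts per library. Levels are given as CPM, the counts of a gene scaled to library size with TMM factors, and differences as the log2 fold change of replicate 2 over replicate 1 from edgeR, with its SE. Adjusted p-values are two-sided, from edgeR's quasi-likelihood test with Benjamini-Hochberg adjustment over 15431 genes, and a gene is called where its adjusted p was under 0.05. As a check of the labels, MXD3 stood at 9.33 and 11.7 CPM in the EV libraries and between 1849 and 2523 CPM in the other 4 libraries. These values set the EV libraries apart. They cannot tell MXD3 from STIM1::MXD3 libraries, since both plasmids carry MXD3 sequence. MXD3 itself did not differ between replicate numbers beyond its error (log2 fold change -0.02 ± 0.09 SE).

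Replicate 2 and replicate 1 differed at 4499 of 15431 genes (29.2%), of which 2020 (13.1%) were higher in replicate 2 and 2479 (16.1%) were lower. Scaled by library totals alone, 4275 genes were called, of which 2638 were higher and 1637 lower, so the balance of directions turned with the scaling, which moved the median over all genes from 0.006 to 0.077 on the log2 scale. Most differences were small: the median size among called genes was 0.40 on the log2 scale, and 356 genes (2.31%) were called with over 2-fold change, 241 of them higher (1.56%) and 115 lower (0.745%). Of the called genes, 98.7% had the same sign in all 3 pairs, against 58.8% of all genes tested, a description only, since the calls were made from these same pairs. In 2780 genes (18%) all 3 libraries of replicate 2 lay above all 3 of replicate 1, and in 3178 (20.6%) they lay below. Without the STIM1::MXD3 library of replicate 1 or of replicate 2 the fit called 2660 or 2404 genes. Either omission takes the whole pair out of the comparison, since the plasmid term then fits the library that is left. No gene called in both fits was of opposite sign, a description only, since the fits share libraries.

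The 3 plasmid pairs share no library, and the direction was also read in a pair that took no part in the choice of genes. Genes with an unadjusted p under 0.01 in the 4 libraries of the other 2 plasmids had the same direction in the EV pair for 3798 of 4102 genes (92.6%, against 73.9% of all genes tested). For the MXD3 pair the figures were 3206 of 3323 (96.5%, against 75%), and for the STIM1::MXD3 pair 2592 of 2620 (98.9%, against 77.4%). The replicate number took 39% of the sum of squares of log2 CPM over all genes tested, the plasmid 32.3% and the rest 28.7%. Over the 10250 genes at a mean CPM of 5 or more those shares were 59.1%, 25.3% and 15.7%. The first principal component of these genes held 67.1% of their variance and placed the 3 libraries of replicate 1 at -18.7, -8.84 and -19.5 and those of replicate 2 at 5.15, 19.2 and 22.7. The EV library of replicate 2 thus lay nearest to the replicate 1 side.

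APOE, HBZ and RPS27 mark the comparison. APOE, an apolipoprotein that loads cells' cholesterol onto lipoprotein particles (chromosome 19, 45409048 to 45412650 on GRCh37, plus strand), stood at 535, 463 and 537 CPM in the EV, MXD3 and STIM1::MXD3 libraries of replicate 1 and at 223, 181 and 215 CPM in those of replicate 2. Every replicate 1 library was over every replicate 2 library, and within a replicate number the plasmids lay close together. The log2 fold change was -1.31 ± 0.07 (SE, adjusted p = 1.6e-08), or 2.48-fold higher in replicate 1. HBZ, the embryonic zeta globin (chromosome 16, 192727 to 204502), was at 263, 354 and 304 CPM in replicate 1 and at 145, 188 and 160 CPM in replicate 2. RPS27, a small ribosomal protein of the small subunit (chromosome 1, 153963238 to 153964631), went the other way, with 437, 372 and 436 CPM in replicate 1 and 816, 782 and 845 CPM in replicate 2. Neither gene's groups overlapped. Their log2 fold changes were -0.90 ± 0.07 (adjusted p = 8.96e-07) and 0.98 ± 0.07 (adjusted p = 8.21e-07), each with the same direction in all 3 pairs.

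**Figure D1:**
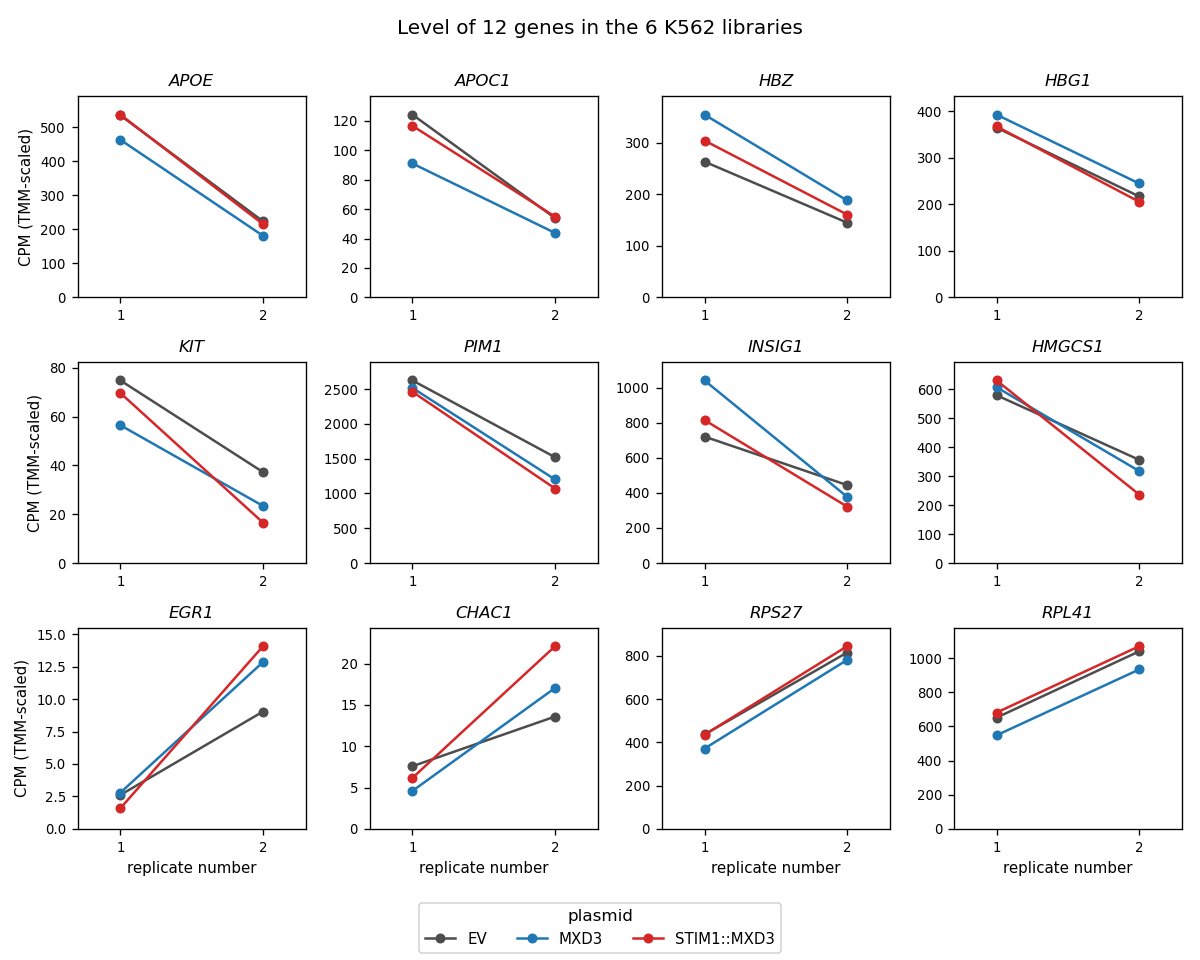
CPM (vertical axis, from 0) of 12 genes in the 6 libraries, with replicate number on the horizontal axis and a line joining the 2 libraries of each plasmid. Lines fall for APOE, APOC1, HBZ, HBG1, KIT, PIM1, INSIG1 and HMGCS1 and climb for EGR1, CHAC1, RPS27 and RPL41 in all 3 plasmids.

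Every globin gene that was called was lower in replicate 2. All 4 embryonic and fetal globin genes tested were called lower (median log2 fold change -0.57, against 0.006 over all genes tested). HBG1, a fetal gamma globin, stood at 364, 392 and 367 CPM in replicate 1 and 217, 244 and 205 CPM in replicate 2 (-0.76 ± 0.07). HBE1, the embryonic epsilon globin and the most heavily counted of them, moved less, from 4118, 4638 and 4697 CPM to 3930, 4077 and 3548 CPM (-0.22 ± 0.07, adjusted p = 0.0235). Its groups did not overlap, though the EV pair differed little. Of 5 adult and other globin genes tested 3 were called lower and none higher, with HBA1 at 67.2, 88.4 and 71.8 CPM in replicate 1 and 34.4, 38.6 and 29.8 CPM in replicate 2 (-1.14 ± 0.08). HBA2, its near-identical neighbour, gave -0.10 ± 0.12 and was not called. Reads of HBA1 and HBA2, and of HBG1 and HBG2, may have been divided unevenly by the counting, so the values of single copies are uncertain.

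Among transcription factors of the red cell lineage, 10 of 18 tested were called lower and 3 higher (median -0.24). GFI1B, a repressor needed for red cell and platelet formation, fell from 243, 199 and 215 CPM to 152, 117 and 114 CPM (-0.78 ± 0.07, adjusted p = 3.16e-06). KLF1, the activator of many red cell genes, gave -0.56 ± 0.08, and GATA1, the lineage's master factor, -0.24 ± 0.07, with groups that overlapped. RUNX1, which acts earlier in blood formation, was higher (0.63 ± 0.08), as were LMO2 and E2F2 (0.33 and 0.61). TAL1 gave -0.03 ± 0.07 and was not called. So the factors did not move as a block.

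Red cell surface and skeleton genes were lower at 12 of 32 tested and higher at 2 (median -0.18). Without the STIM1::MXD3 library of replicate 1 or of replicate 2 that median was -0.076 or -0.058. The Rh genes led: RHD, which encodes the D antigen, stood at 99.0, 89.7 and 104 CPM in replicate 1 and 58.2, 48.3 and 47.7 CPM in replicate 2 (-0.93 ± 0.08, adjusted p = 2.95e-06). RHCE gave -0.82 ± 0.09, and since it is a near copy of RHD the division of reads between them is uncertain. RHAG, the partner that carries Rh proteins to the membrane, gave -0.50 ± 0.07, and SLC2A1, the glucose transporter, -0.59 ± 0.07. EPB42 and SPTB, proteins of the membrane skeleton, were higher (0.44 and 0.20). Haem enzymes changed little, with 3 of 12 lower and 1 higher (median -0.10). That is 33.3% called, near the 29.2% of all genes tested. Among iron genes, with a median of -0.16, 6 of 21 were lower (28.6%, against 16.1% of all genes tested) and 1 higher (4.76%, against 13.1%). That is 33.3% called, as for the haem enzymes. The ferritin chains FTH1 and FTL gave -0.51 ± 0.06 and -0.47 ± 0.07. FTH1 stood at 5356, 5053 and 5471 CPM in replicate 1 and 3815, 3646 and 3660 CPM in replicate 2. In bulk RNA, fewer cells of a more red-cell-like state and less RNA in each cell cannot be told apart.

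The GATA form AGATAA, on either strand, lay in the promoter window (250 bases before to 50 after a start, RefSeq, GRCh38.p14) of 11 of 24 red cell surface genes with a window (45.8%), against 8.34% of all genes tested with one. Of these 11, RHD, RHCE, ICAM4 and HEMGN were called lower and EPB42 and SPTB higher. GYPB, GYPE, KEL and EPOR were not called, and CD36 was not tested. The share with the form was 7.24% among genes called lower and 6.68% among those called higher, both near the share over all genes tested. RHD is shown as the called gene of the list with the smallest p that has it, from chr1:25272236-25272485, plus strand, with AGATAA in capitals.
RHD: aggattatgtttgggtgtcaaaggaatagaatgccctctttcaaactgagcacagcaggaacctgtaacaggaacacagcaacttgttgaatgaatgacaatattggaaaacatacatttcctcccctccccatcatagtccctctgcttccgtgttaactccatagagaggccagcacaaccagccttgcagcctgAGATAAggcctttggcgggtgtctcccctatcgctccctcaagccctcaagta

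Sterol genes showed the highest share of calls among the larger lists. Of 25 genes of cholesterol synthesis and its control, 21 were called lower and 1 higher (median -0.54), with summed CPM between 6280 and 7014 in replicate 1 and between 3693 and 4586 in replicate 2. INSIG1, which holds SREBP back in the endoplasmic reticulum and is itself an SREBP target, stood at 721, 1041 and 815 CPM and then 445, 378 and 322 CPM (-1.17 ± 0.11, adjusted p = 4.57e-06). HMGCS1, an early enzyme of the route, was at 579, 607 and 630 CPM and then 356, 318 and 237 CPM (-1.02 ± 0.10). MSMO1, a later enzyme of the route, gave -1.18 ± 0.12. PMVK, phosphomevalonate kinase, was the member called higher (0.66 ± 0.14), at 6.09 to 7.55 CPM in replicate 1 and 9.70 to 10.97 CPM in replicate 2. FDPS, LSS and TM7SF2 were not called (-0.18, -0.12 and -0.01).

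The apolipoprotein and LXR list had 5 of 13 genes called lower and none higher (median -0.51). Beside APOE these were APOC1, which neighbours it, at 124, 91.1 and 117 CPM in replicate 1 and 53.9, 43.8 and 54.9 CPM in replicate 2 (-1.12 ± 0.07), then SCD, MYLIP and LPL (-0.53, -0.51 and -0.67). The LXR receptors NR1H3 and NR1H2 gave -0.27 and -0.11 and were not called. ABCA1, the cholesterol exporter, was under 0.5 CPM in every library. The sterol form TCACNCCAC was found in 1 of 18 windows of the cholesterol list (5.56%, against 1.39% of genes tested). That window belongs to SREBF2, the SREBP that drives the route (-0.34 ± 0.07), and is shown from chr22:41832855-41833104, plus strand, with the form in capitals.
SREBF2: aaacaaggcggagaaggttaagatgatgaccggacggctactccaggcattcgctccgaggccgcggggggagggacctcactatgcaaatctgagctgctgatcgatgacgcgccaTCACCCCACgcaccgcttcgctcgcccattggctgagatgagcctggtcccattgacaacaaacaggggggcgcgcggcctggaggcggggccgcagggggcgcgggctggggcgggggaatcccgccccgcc

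Integrated stress response genes were higher in replicate 2. This pathway halts most translation and turns on ATF4 and its targets when amino acids run short or proteins misfold. Of 34 genes tested 23 were called higher and 3 lower (median 0.38), and the list's median was positive in every plasmid pair, at 0.14 for EV, 0.38 for MXD3 and 0.51 for STIM1::MXD3. CHAC1, which breaks down glutathione, stood at 7.58, 4.59 and 6.17 CPM in replicate 1 and 13.6, 17.1 and 22.1 CPM in replicate 2 (1.53 ± 0.18, adjusted p = 2.62e-05). The cystine transporter SLC7A11 was at 55.1, 44.5 and 51.8 CPM and then 77.9, 83.5 and 91.3 CPM (0.74 ± 0.09). DDIT4, an inhibitor of mTORC1, went from 360, 241 and 307 CPM to 434, 526 and 603 CPM (0.79 ± 0.12). In each of these the EV pair showed the smallest step.

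ADM2 and TRIB3 were also higher (1.19 ± 0.14 and 0.50 ± 0.10), and ATF4 itself barely so (0.21 ± 0.07, adjusted p = 0.0454), with 511 and 513 CPM in the EV pair. The 3 members called lower were GDF15, SLC3A2 and PPP1R15A. GDF15, a secreted stress cytokine, fell from 1123, 915 and 958 CPM to 716, 457 and 501.2 CPM (-0.86 ± 0.08), against most of its list. ASNS, asparagine synthetase and a standard ATF4 target, gave -0.05 ± 0.07 and was not called. Aminoacyl-tRNA synthetases, many of them ATF4 targets too, had 1 of 20 higher and 3 lower (median 0.02), and genes of endoplasmic reticulum folding had 7 of 30 higher and 7 lower (median -0.03). The shares called were 20% and 46.7%, against 29.2% of all genes tested. Without the STIM1::MXD3 library of replicate 1 or 2, 16 integrated stress response genes were called higher.

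The composite form TGATGNAA is bound by ATF4 and a C/EBP partner together. Promoter windows held it in 2.91% of genes tested, 2.14% of those called higher and 2.72% of those called lower. Among integrated stress response genes it lay in the window of 8 of 28 (28.6%). Of these 8, CHAC1, ATF3, SLC7A1, SLC1A5 and CEBPG were called higher, SLC3A2 was called lower, and ASNS and FGF21 were not called. CHAC1 (chr15:40953221-40953470, plus strand, form on the minus strand) and ATF3 (chr1:212565157-212565406, plus strand) are shown because they rose and hold the form, in capitals.
CHAC1: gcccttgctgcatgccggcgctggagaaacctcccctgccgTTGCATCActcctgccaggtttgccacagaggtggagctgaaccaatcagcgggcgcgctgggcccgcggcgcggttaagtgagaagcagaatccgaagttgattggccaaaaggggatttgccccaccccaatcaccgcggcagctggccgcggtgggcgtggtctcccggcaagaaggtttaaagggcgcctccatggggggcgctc
ATF3: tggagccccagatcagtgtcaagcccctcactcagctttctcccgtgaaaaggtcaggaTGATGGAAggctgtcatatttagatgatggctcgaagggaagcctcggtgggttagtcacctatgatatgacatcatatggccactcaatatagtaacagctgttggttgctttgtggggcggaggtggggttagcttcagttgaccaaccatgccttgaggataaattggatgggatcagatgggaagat

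Ribosomal protein genes moved in both directions. Of 32 small-subunit genes 11 were called higher and 6 lower (median 0.10), and of 47 large-subunit genes 19 were higher and 5 lower (median 0.11). With offsets for GC content and length in the fit, 8 small-subunit genes were called higher and 9 lower (median 0.00), and the large-subunit median was 0.05. Besides RPS27 the strongest were RPL41, at 651, 548 and 681 CPM in replicate 1 and 1039, 933 and 1069 CPM in replicate 2 (0.70 ± 0.07, adjusted p = 6.23e-06), and RPL39, at 242, 205 and 255 CPM and then 375, 359 and 403 CPM (0.70 ± 0.07). RPL36A, RPL38 and RPS26 gave 0.71, 0.66 and 0.53. RPL13 was lower (-0.43 ± 0.06), as were RPS12, at 1440, 1153 and 1433 CPM and then 1119, 937 and 1051 CPM (-0.37 ± 0.07), and RPLP1 (-0.25 ± 0.06). RPS29, another very short transcript, gave 0.00 ± 0.08. RPS18 and RPS19 had few counts for ribosomal proteins and have near-identical copies elsewhere, so their values (-0.36 and -0.58) are uncertain.

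Ribosomal protein mRNAs are known for a pyrimidine tract near their 5′ end through which mTORC1 controls their translation. The 30 bases centred on the RefSeq start are shown for 4 genes that rose and for RPS12, which fell. The longest pyrimidine run is in capitals. In each of these genes the run spans the start, so its first capitals lie before the first base of the RefSeq transcript. The GRCh38.p14 places are chr1:153990747-153990776 for RPS27, chr12:56116618-56116647 for RPL41, chrX:101390996-101391025 for RPL36A and chr6:132814554-132814583 for RPS12, all on the plus strand, and chrX:119791616-119791645 on the minus strand for RPL39.
RPS27: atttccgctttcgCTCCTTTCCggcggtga
RPL41: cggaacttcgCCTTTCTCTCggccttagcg
RPL39: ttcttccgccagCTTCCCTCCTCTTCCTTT
RPL36A: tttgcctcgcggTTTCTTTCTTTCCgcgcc
RPS12: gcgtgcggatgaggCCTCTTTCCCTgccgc
Any such sequence holds a longest run, and run lengths were not compared with those of other genes. The run was 9 bases long in RPS27, 10 in RPL41, at least 18 in RPL39, 13 in RPL36A and 11 in RPS12. In RPL39 it reached the last of the 30 bases and may continue beyond them. RPL38 and RPS26, which also rose and are not shown, each had 9. Other mRNAs of this class had 3 of 24 higher and 6 lower (median -0.04), and VIM, vimentin, fell from 3175, 2591 and 2841 CPM to 1808, 1579 and 1647 CPM (-0.77 ± 0.06).

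Transcript length moved with the direction of change. Of the 322 genes tested with a canonical transcript of up to 500 bases, 19.3% were called higher and 5.9% lower (median 0.17), against 10.4% and 22% of the 1115 genes over 8000 bases (median -0.05). The medians of these shortest and longest groups were 0.174 and -0.077 in the MXD3 pair and 0.213 and -0.074 in the STIM1::MXD3 pair, but 0.001 and 0.007 in the EV pair, which did not show the trend. The shortest group is mixed, since it includes small nucleolar RNAs. The median of all 144 of those tested was -0.572 in the EV pair, -0.142 in the MXD3 pair and -0.355 in the STIM1::MXD3 pair. Where the mean CPM was 5 or more, the shortest transcripts were called higher in 52.3% and lower in 5.81% (86 genes, median 0.31), and the longest in 12% and 27.5% (848 genes, median -0.08), with EV pair medians of 0.213 and -0.009. Left without ribosomal proteins, a choice made after seeing the data, the shortest group had 51.9% higher and 5.19% lower (77 genes). GC content moved with it too: over all genes tested, transcripts up to 40% GC had a median of -0.105 and were called lower in 26.2%, while those over 50% GC had medians between 0.05 and 0.07. Over 60% GC the median of 0.054 came with -0.007 in the EV pair, -0.019 in the MXD3 pair and 0.139 in the STIM1::MXD3 pair, and at a mean CPM of 5 or more it was -0.008. With offsets for GC content and length in the fit, RPS27 kept 0.88, RPL41 0.61, APOE -1.29 and HBZ -0.99. RNA quality and library preparation were not measured here, and the part of length and GC content in single results was not tested beyond these offsets.

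**Figure D2:**
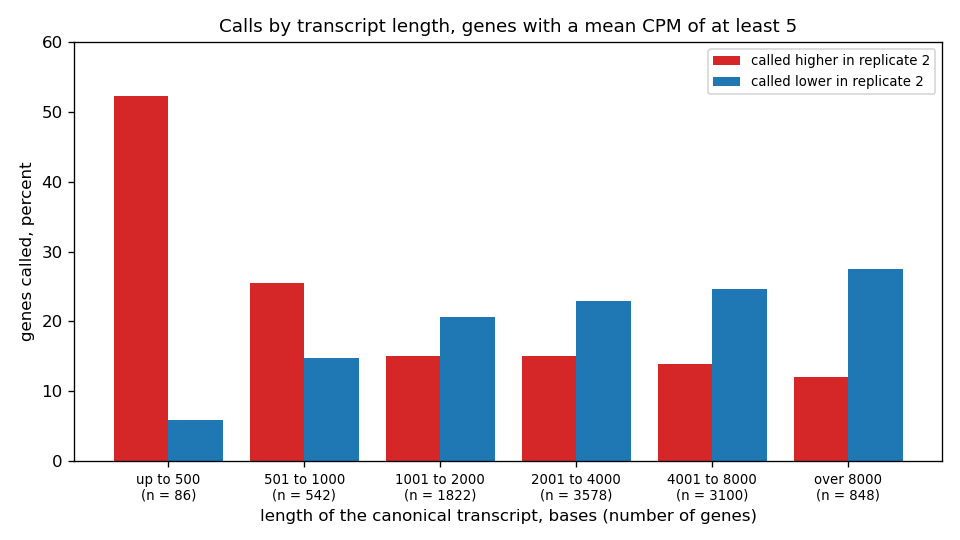
Percent of genes called higher (red) and lower (blue) in replicate 2 (vertical axis, from 0) by length of the canonical transcript in bases (horizontal axis, with the number of genes), for genes whose mean CPM was 5 or more. The red bar is 52.3% for the shortest transcripts and 12% for the longest, and the blue bar climbs from 5.81% to 27.5%.

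Nuclear genes of the respiratory chain, many of them short, had 25 of 77 called higher and 15 lower (median 0.01). NDUFS5 and NDUFS6, subunits of complex I, were higher (0.52 and 0.56), while NDUFS7 of the same complex and ATP5F1D of the ATP synthase were lower (-0.52 and -0.67). Mitochondrial ribosomal proteins had 12 of 78 higher and 9 lower (median 0.00), and cytosolic ribosome assembly factors 18 of 87 higher and 15 lower (median 0.02). The shares called were 26.9% and 37.9%, against 29.2% of all genes tested.

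Mitochondrially encoded transcripts did not share a direction among the plasmids. They took 2.73%, 1.45% and 1.56% of counts in the EV, MXD3 and STIM1::MXD3 libraries of replicate 1 and 1.54%, 3.73% and 2.90% in those of replicate 2. The share fell in the EV pair and climbed in the others, and the means were 1.91% and 2.72%. An exact permutation test over 3 pairs cannot go below a two-sided p of 0.25, and gave p = 0.5. Of 15 transcripts 4 were called higher and none lower (median 0.54). The share called was 26.7%, against 29.2% called and 13.1% called higher among all genes tested. Without either EV library the median was 1.228, without either MXD3 library 0.131, and without a STIM1::MXD3 library 0.349 (replicate 1) or 0.367 (replicate 2). MT-ND3 was the member with replicate 2 over replicate 1 in every pair, at 165, 124 and 127 CPM and then 319, 643 and 553 CPM (1.83 ± 0.18, adjusted p = 6.64e-06). MT-ND1, at 477, 211 and 247 CPM and then 305, 848 and 700 CPM, overlapped between groups (0.99 ± 0.31, adjusted p = 0.0261). DESeq2 called 1 of the 15 higher, and the fit without a filter on low counts called 14, so that count hangs on the method. Ribosomal protein genes took 8.02%, 6.95% and 8.21% of counts in replicate 1 and 8.64%, 7.74% and 8.63% in replicate 2, higher in every pair (exact permutation p = 0.25, the smallest possible). These are shares of library totals. As summed TMM-scaled CPM the STIM1::MXD3 pair fell, from 30730 to 29890 for the small subunit and from 54720 to 53820 for the large. The EV pair rose from 29830 to 30510 and from 53700 to 54590, and the MXD3 pair from 24420 to 26740 and from 44590 to 48550.

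**Figure D3:**
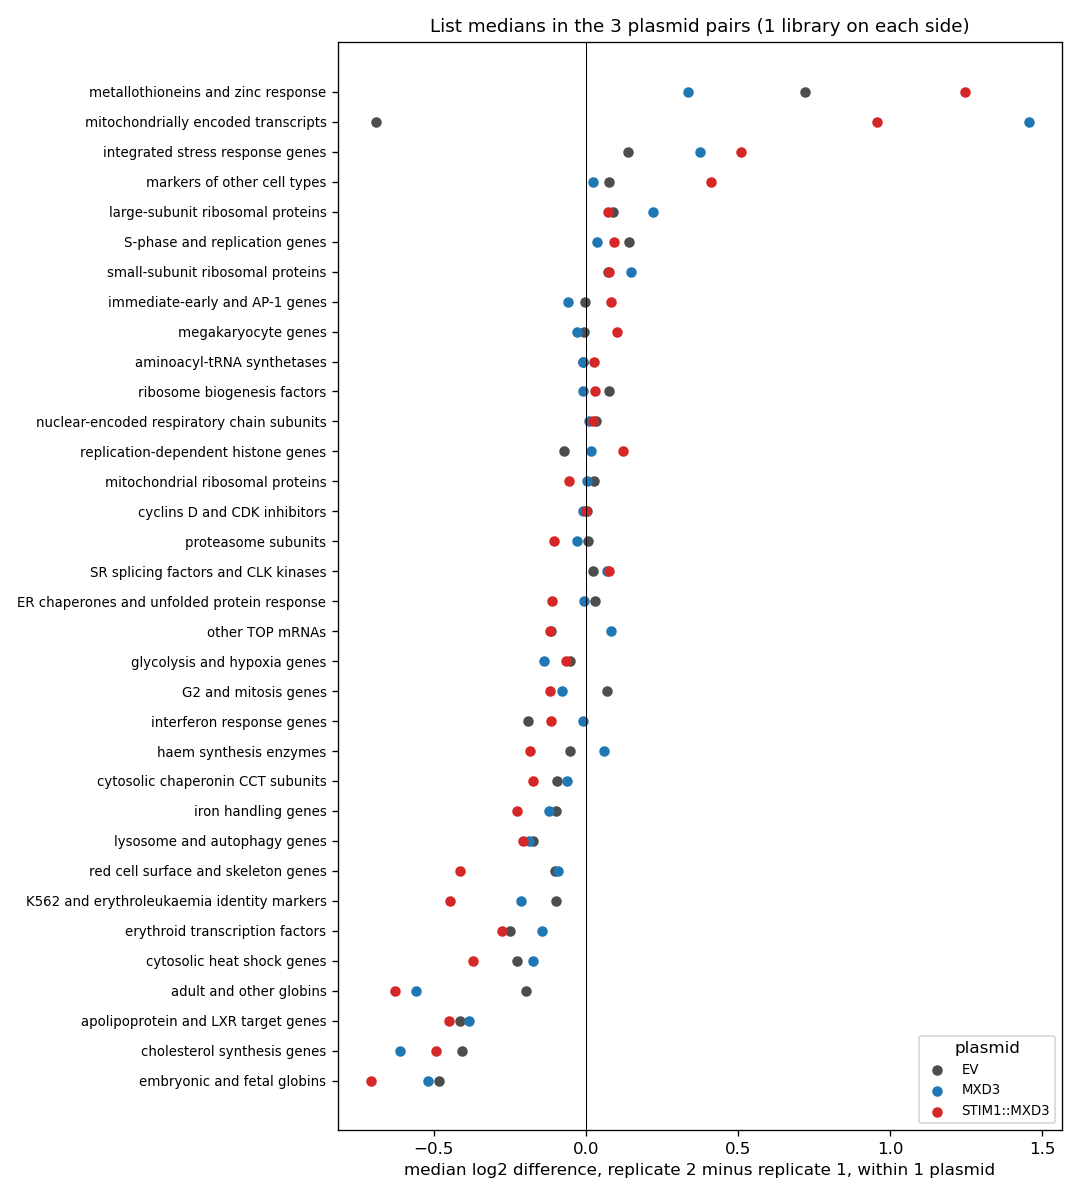
Median log2 difference, replicate 2 minus replicate 1, of each gene list within the EV (grey), MXD3 (blue) and STIM1::MXD3 (red) pair, horizontal axis on the log2 scale. Globin, sterol and apolipoprotein lists lie left of 0 and the integrated stress response list right of 0 in all 3 pairs, while mitochondrially encoded transcripts lie at -0.69 for EV and at 1.46 and 0.96 for the others.

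Of 26 immediate-early genes 4 were called higher (15.4%, against 13.1% of all genes tested) and 6 lower (23.1%, against 16.1%). Members went both ways, with a median of 0.06. EGR1, a zinc finger factor induced within minutes of growth factor signalling, stood at 2.61, 2.79 and 1.59 CPM in replicate 1 and 9.04, 12.9 and 14.1 CPM in replicate 2 (2.36 ± 0.21, adjusted p = 2.95e-06). SPRY4, a feedback inhibitor of the same signalling, went from 7.30, 10.9 and 5.87 CPM to 14.9, 24.1 and 31.2 CPM (1.52 ± 0.20). JUN, a subunit of AP-1 dimers, went down instead, from 299, 301 and 236 CPM to 204, 87.1 and 78.2 CPM (-1.31 ± 0.16), and DUSP1, a MAPK phosphatase, gave -1.01 ± 0.11. JUNB and IER2 were higher (0.51 and 0.68) and JUND lower (-0.70). FOS and MYC were not called (0.53 and 0.04).

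KIT, the stem cell factor receptor, was among the strongest losses, at 74.8, 56.5 and 69.7 CPM in replicate 1 and 37.3, 23.4 and 16.6 CPM in replicate 2 (-1.44 ± 0.14, adjusted p = 7.89e-06). PIM1, a survival kinase induced by STAT5 below BCR::ABL1, fell from 2624, 2517 and 2461 CPM to 1521, 1201 and 1071 CPM (-1.02 ± 0.08). Neither BCR nor ABL1 was called (-0.14 and -0.17). Of the 14 identity markers of K562, 8 were called lower and 1, LMO2, higher (median -0.23), and all stayed expressed. This list includes globin genes and red cell factors described above, among them HBZ, HBG1, HBE1, KLF1 and GATA1. Its calls therefore partly repeat theirs. Of 18 markers of other cell types 12 were tested (median 0.19), 1 was called lower (EPCAM, 93.5, 85.9 and 101 CPM against 77.9, 80.1 and 79.6 CPM) and none was called higher. Their summed CPM was 136 to 150 in replicate 1 and 130 to 137 in replicate 2, mostly EPCAM. The defining markers CD3E, CD79A, CD14, FCGR3A and NKG7 were each under 1 CPM in every library, and CD2, MS4A1, KRT5, COL3A1, VWF and ALB had too few counts to test.

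Metallothioneins, which bind zinc and copper, were higher, but at low counts. Of 10 genes in the metallothionein and zinc list 6 were called higher and 3 lower (median 0.88). MT2A stood at 22.2, 12.1 and 10.1 CPM in replicate 1 and 38.4, 18.9 and 31.0 CPM in replicate 2 (1.01 ± 0.15), and its groups overlapped because the EV libraries of both numbers were the highest of their group. SLC30A1, the zinc exporter that MTF1 induces along with metallothioneins, went the other way, from 62.7, 62.1 and 62.2 CPM to 34.4, 25.5 and 23.4 CPM (-1.19 ± 0.10, adjusted p = 1.93e-06). With only genes at a mean CPM of 5 or more, the list's median was -0.07, since most metallothioneins were below that level. Near-identical metallothionein genes make single values uncertain.

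Heat shock genes of the cytosol were lower at 12 of 24 tested and higher at 1 (median -0.27). DNAJB1, a co-chaperone of HSP70, fell from 205, 159 and 193 CPM to 122, 84.0 and 86.1 CPM (-0.95 ± 0.08, adjusted p = 1.86e-06), and HSF1 and HSF2, which drive the response, gave -0.38 and -0.63. HSPE1, the small mitochondrial co-chaperonin, was the member called higher (0.44 ± 0.08). Chaperonin CCT subunits had 3 of 8 lower and none higher (median -0.10). Lysosome and autophagy genes were lower at 18 of 41 and higher at 2 (median -0.18), with ASAH1, acid ceramidase, at 264.3, 218 and 283 CPM and then 187, 163 and 164 CPM (-0.57 ± 0.08), and CD63 higher (0.48 ± 0.07).

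Growth genes were called at shares near the 29.2% of all genes tested, at 32% for S phase and 26.8% for G2 and mitosis. S-phase genes had 12 of 50 higher (24%, against 13.1% of all genes) and 4 lower (8%, against 16.1%; median 0.10), with GINS4 and CHAF1A at 0.62 and 0.45. G2 and mitosis genes had 3 of 56 higher (5.36%) and 12 lower (21.4%; median -0.05), with CDK1 at -0.51 ± 0.07. CCND1 was higher (0.88 ± 0.13) and CDKN1C, an inhibitor of cyclin-dependent kinases, lower, from 111, 102 and 117 CPM to 79.8, 47.2 and 48.0 CPM (-0.96 ± 0.11). Glycolysis and hypoxia genes were lower at 12 of 38 and higher at 5 (median -0.05), with ALDOC at -0.71 and TXNIP at 0.87. Interferon response genes had 1 of 35 higher and 7 lower (median -0.10), or 22.9% called, under the share of all genes, with IFITM3 at -0.65 ± 0.07. SR splicing factors and CLK kinases had 7 of 24 in each direction (median -0.03), SRSF5 at 0.79 and CLK1 at -0.62. Histone genes (2 of 38 higher, 6 lower), proteasome subunits (4 of 31 higher, 5 lower), megakaryocyte genes (1 of 14 higher, 2 lower) and cyclins D with their inhibitors (4 of 13 higher, 3 lower) had medians between -0.02 and 0.05. The shares called were 21.1% for histones, 21.4% for megakaryocyte genes and 29% for proteasome subunits, none over that of all genes.

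**Figure D4:**
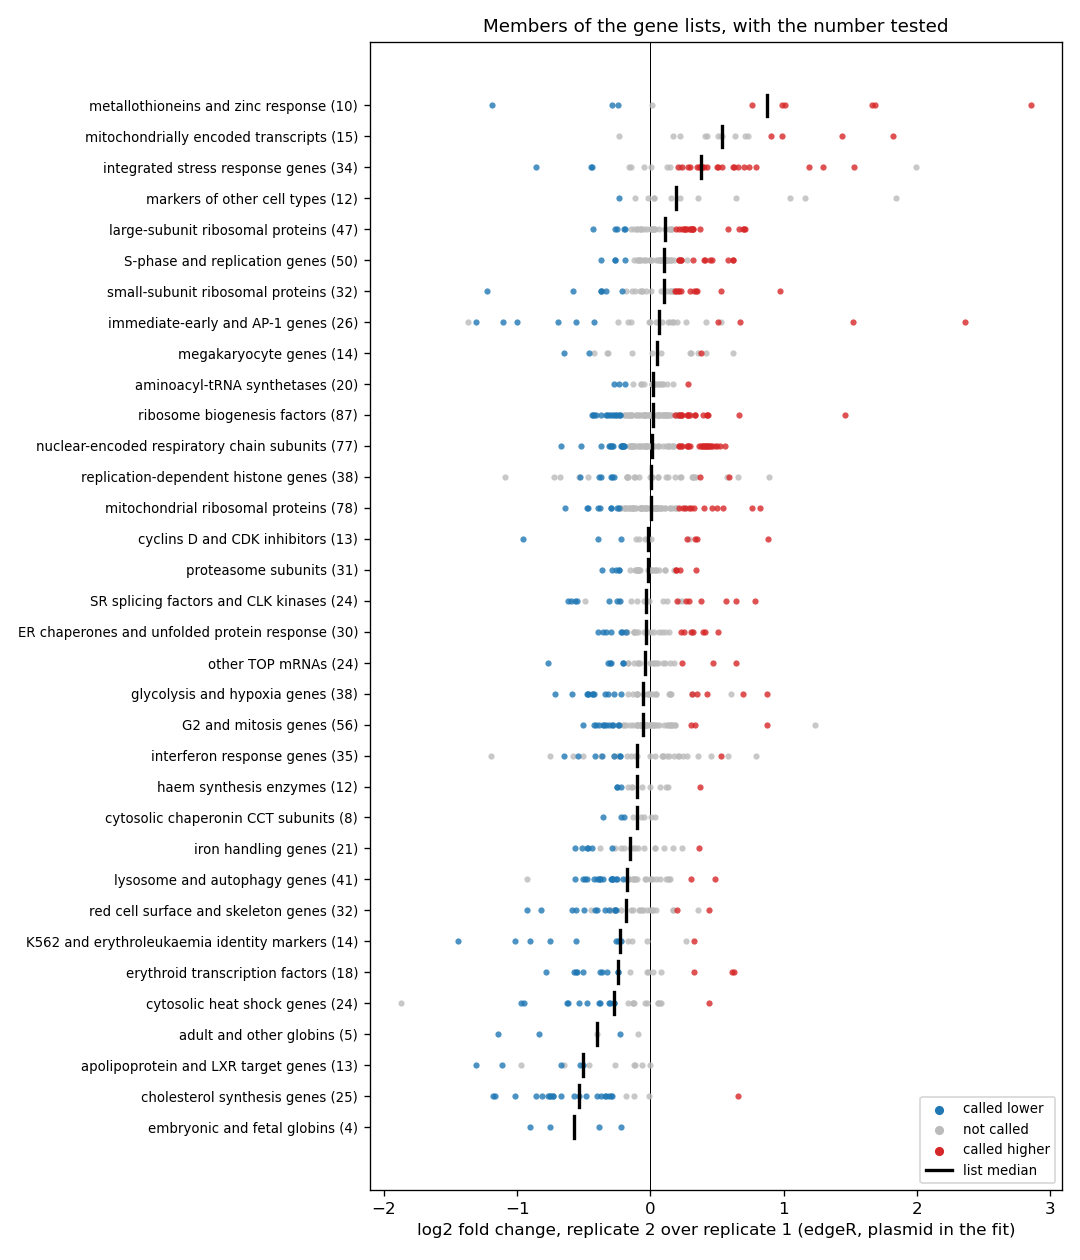
Log2 fold change of every tested member (points) of 34 gene lists, ordered by list median (black bars), with members called higher in red, called lower in blue and not called in grey. Embryonic and fetal globins (-0.57), cholesterol synthesis (-0.54) and apolipoprotein genes (-0.51) have the lowest medians, and metallothioneins (0.88), mitochondrially encoded transcripts (0.54) and the integrated stress response (0.38) the highest.

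The largest differences lay partly outside these lists. By the rule for named genes, 1350 genes qualified as higher and 2068 as lower, and the 15 largest of each were taken. RN7SL2 and RN7SL1 are near-identical genes for the RNA of the signal recognition particle. RN7SL2 had the largest rise of the 15, at 4.38, 14.9 and 1.20 CPM in replicate 1 and 27.0, 26.2 and 31.0 CPM in replicate 2 (2.50 ± 0.42, adjusted p = 0.000454), and RN7SL1 gave 2.21, after EGR1. This RNA has no poly(A) tail, while the libraries were poly(A)-enriched, and the 3 libraries of replicate 1 differed from each other by more than those of replicate 2. INHBE, an activin subunit also known to be induced by stress, stood at 37.3, 37.4 and 29.1 CPM and then 63.9, 85.3 and 103 CPM (1.27 ± 0.13). Others higher were ZNF587B, KLHDC7B, FAM86B3P, AATBC, TMEM147-AS1, PRECSIT and TMEM154, with log2 fold changes from 1.25 to 1.62.

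Among the losses DBP, a circadian transcription factor, stood at 12.7, 17.7 and 13.2 CPM in replicate 1 and 4.58, 4.31 and 4.20 CPM in replicate 2 (-1.72 ± 0.15, adjusted p = 1.97e-06). SYDE2 fell from 50.3, 38.95 and 42.1 CPM to 22.9, 13.6 and 11.99 CPM (-1.49 ± 0.11), and ZNF467 from 72.2, 47.9 and 70.2 CPM to 33.0, 22.5 and 24.3 CPM (-1.25 ± 0.10). LRRTM1, FBXO32, PROCR, SH2D3C, PAPPA and INHA gave log2 fold changes from -1.79 to -1.19. In none of these 9 genes did the groups overlap, as the rule required. Chromosomes differed little: their medians ran from -0.08 on chromosome 13 to 0.07 on chromosome 22.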

How the data were processed

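RNA from K562 cells in 6 libraries (EV, MXD3 and STIM1::MXD3, replicates 1 and 2) was poly(A)-enriched and sequenced, and the authors deposited 1 table of raw counts per gene for each library, with no normalization. The submitters' processing notes name HISAT2 2.2.1, featureCounts 2.0.1 and hg19, and strand and multi-mapping settings are not given in the sources used here. Of counts from 1 to 39, 59.8% to 67.3% per library were even, so the deposited counts may partly hold both mates of a fragment, and counts divided by 2 were run as an alternative. Totals were 53048343 to 63835779 counts, and p-values measure only the spread between these libraries.

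NCBI Gene identifiers were matched to RefSeq symbols (23696 of 25702), and canonical transcripts of GENCODE on GRCh37 gave positions, lengths and GC content. In R 4.3.3, edgeR 4.0.16 fitted the plasmid and the replicate number with TMM scaling and its expression filter (15431 genes kept), leaving 2 residual degrees of freedom per gene. Whether the replicate difference itself differs between plasmids cannot be tested, since each plasmid has 1 library per number. Principal components and sums of squares used log2 CPM with a prior count of 2. DESeq2 1.42.0, other scalings and filters, no plasmid term, smooth offsets for GC content and length (mgcv 1.9.3) and each library left out were the alternatives. The scripts were tested on simulated data. The samples and the 34 gene lists were chosen with earlier results of these data known, so list counts and medians are descriptions without a test. Named genes were APOE, HBZ and RPS27, the 15 higher and 15 lower called genes with the largest log2 fold change, a mean of 5 CPM or more on the higher side and no overlap between groups, and up to 4 members of each list with the smallest p. Other list members are given where they complete an account, and were chosen after their values were seen. Entries without a symbol were not described. Some genes that met these rules are not reported here.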

Additional observations from a re-analysis of the deposited data

Results flagged for a closer look

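In each case below the plasmid pairs moved in opposite directions, with 1 library on each side of a pair, so the difference between the pairs was not tested. Mitochondrially encoded transcripts had a median log2 difference (replicate 2 minus replicate 1) of -0.69 in the EV pair, 1.46 in the MXD3 pair and 0.96 in the STIM1::MXD3 pair, and 13 of the 15 were lower in the EV pair and higher in both others. MT-ND3 was higher in all 3 pairs (0.95, 2.38 and 2.12), while MT-RNR1 was lower in the EV pair (-0.82) and near 0 in the others (0.13 and -0.03). ALAS2, which makes the first intermediate of haem in red cells, was called lower (-0.25), with -0.37 in the EV pair, 0.01 in the MXD3 pair and -0.39 in the STIM1::MXD3 pair.

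The other lists with opposite pairs had medians near 0. In the order EV, MXD3 and STIM1::MXD3, the medians were -0.051, 0.060 and -0.185 for haem enzymes, -0.005, -0.029 and 0.102 for megakaryocyte genes, and -0.115, 0.082 and -0.119 for other mRNAs of the pyrimidine tract class. They were 0.075, -0.010 and 0.029 for ribosome assembly factors, 0.026, 0.005 and -0.055 for mitochondrial ribosomal proteins, and -0.008, -0.011 and 0.028 for aminoacyl-tRNA synthetases. They were 0.029, -0.006 and -0.112 for folding genes of the endoplasmic reticulum, 0.006, -0.028 and -0.106 for proteasome subunits, and -0.004, -0.058 and 0.081 for immediate-early genes. They were 0.069, -0.078 and -0.118 for G2 and mitosis genes, -0.072, 0.016 and 0.122 for histone genes, and 0.005, -0.008 and 0.001 for cyclins D with their inhibitors.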

How the results depend on the processing

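No gene called under both the reported fit and an alternative changed direction in any of the 14 alternatives, which share most or all of their libraries with it. As the plasmid is a term of the fit, leaving out 1 library takes its pair out of the comparison. Both omissions of a pair thus rest on the same comparison. Calls numbered from 2404 to 4452 with 1 library left out, from 1104 to 2107 higher and from 1300 to 2361 lower, the lowest without a STIM1::MXD3 library, and 142 to 534 were over 2-fold. Library totals alone gave 1637 lower calls, a mean CPM of 5 or more 78 calls over 2-fold. Of 155 named genes, 129 kept their side of the threshold in every alternative and none changed sign. No paired analysis was possible because a block for the replicate number would remove the factor compared. The pairs here are the plasmids, which are a term of the reported fit, and without that term 3469 genes were called. The causes of the changes below were not tested.

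The replicate share of the sum of squares was 59.1% at a mean CPM of 5 or more, and between 44.3% and 55.4% with a plasmid left out (55.4% without EV, 50.3% without MXD3). At that CPM the chromosome medians ran from -0.11 to 0.027, the length medians up to 8000 bases were 0.313, 0.059, -0.037, -0.037 and -0.060 from the shortest, and those over 45% GC were -0.027, 0.027, 0.014 and -0.008 in rising order of GC. Without ribosomal proteins, added after seeing the data, the length medians were 0.34, 0.058, -0.038, -0.037 and -0.060.

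Of the 34 list medians, 17 moved with library totals alone, 11 at a mean CPM of 5 or more, 8 with GC and length offsets, 2 with no filter, 5 to 7 with each library left out and none with DESeq2 size factors. With library totals alone they were -0.170 for red cell factors, -0.085 for iron genes, 0.119 for megakaryocyte genes, -0.436 for apolipoprotein genes, 0.174 for small-subunit ribosomal proteins, 0.088 for ribosome assembly, 0.075 for mitochondrial ribosomal proteins, 0.084 for the respiratory chain, 0.090 for aminoacyl-tRNA synthetases, -0.029 for CCT, 0.050 for the proteasome, 0.135 for immediate-early genes, 0.019 for glycolysis, 0.175 for S phase, 0.053 for cyclins D, -0.104 for lysosomes and 0.042 for splicing factors. At a mean CPM of 5 or more they were -0.343 for apolipoprotein genes, 0.169 for small-subunit ribosomal proteins, 0.060 for ribosome assembly, 0.049 for mitochondrial ribosomal proteins, 0.058 for the respiratory chain, 0.069 for aminoacyl-tRNA synthetases, -0.067 for metallothioneins, -0.128 for histones, 0.026 for cyclins D, -0.123 for lysosomes and 0.016 for splicing factors. With GC and length offsets they were -0.707 for embryonic and fetal globins, 0.000 for small-subunit ribosomal proteins, -0.051 for mitochondrial ribosomal proteins, -0.030 for the respiratory chain, -0.016 for aminoacyl-tRNA synthetases, -0.124 for histones, 0.009 for cyclins D and -0.198 for lysosomes. With no filter they were 0.030 for the respiratory chain and -0.002 for cyclins D.

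With 1 library left out, medians ran from 0.131 to 1.228 for mitochondrially encoded transcripts, -0.21 to -0.058 for red cell surface genes, 0.046 to 0.147 for S phase, -0.022 to 0.045 for splicing factors, 0.005 to 0.058 for aminoacyl-tRNA synthetases, -0.535 to -0.463 for apolipoprotein genes, -0.039 to 0.017 for cyclins D, -0.293 to -0.155 for heat shock, -0.032 to -0.001 for interferon genes, -0.207 to -0.136 for lysosomes, 0.013 to 0.141 for megakaryocyte genes, -0.030 to 0.050 for mitochondrial ribosomal proteins, -0.020 to 0.054 for the respiratory chain, -0.080 to 0.019 for the proteasome and -0.105 to 0.035 for histones. In 19 of 34 lists the median kept its sign throughout. Among the 68 counts of list members called in a direction, many of them small, 26 moved by over 1.5 times with library totals alone, 20 with no plasmid term, 17 at a mean CPM of 5 or more, 10 with GC and length offsets, 6 with no filter, 2 with DESeq2 and 14 to 27 with 1 library left out.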

Other observations

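Small nucleolar RNAs were described after their values had been seen, from all genes that RefSeq types as snoRNA. Of 384 such genes 144 were tested, and 2 were called higher and 20 lower in replicate 2 (median -0.36, against 0.006 over all genes tested). The share called lower, 13.9%, was under the 16.1% of all genes tested, and the share called higher was 1.39% against 13.1%. Their summed CPM was 164, 114 and 117 in the EV, MXD3 and STIM1::MXD3 libraries of replicate 1 and 99.1, 90.2 and 79.2 in those of replicate 2. The median length of these RNAs was 87 bases, so most of those with a known length count among the transcripts of up to 500 bases described above.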
